A study of Homo sapiens with 16 samples.

Results

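Monomethylation of histone H3 at lysine 4 (H3K4me1) was set against trimethylation at lysine 27 (H3K27me3) in BE2C cells depleted of KDM6B, and each protein-coding gene was asked whether it carried 1 of the marks, both or neither. The libraries were chosen by their titles as all CUT&Tag libraries of the siRNA siKDM6B33, 2 for H3K4me1 and 2 for H3K27me3, which is 4 of the 16 libraries of the study. BE2C is an established human neuroblastoma line with amplified MYCN, and the cells were taken 72 h after transfection. Their reference was the same line given a control siRNA, siCtrl, for 72 h, with 2 libraries for each mark, which are used only to show where the knockdown cells differed. The other 8 libraries, of cells treated for 72 h with 0.1% DMSO or 2.5 µM GSKJ4, belong to a separate experiment. The knockdown rests on 1 siRNA in 1 cell line, each library is a bulk preparation, and no library measures the KDM6B transcript, so the depth of the knockdown cannot be read from these data. At the KDM6B gene itself (chromosome 17, 7737535 to 7758114 in hg19) H3K4me1 islands covered 100% of the promoter window in all 4 knockdown and siCtrl libraries, and H3K27me3 covered 0% in all 4.

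H3K4me1 is written mainly by KMT2C and KMT2D and marks enhancers and the flanks of active gene starts. H3K27me3 is written by EZH2 or EZH1 in Polycomb repressive complex 2, lies in broad domains over silenced developmental genes, and is removed by the demethylases KDM6A and KDM6B. CpG-rich promoters of developmental regulators often carry H3K27me3 together with methylation of lysine 4, a state called bivalent. Bulk libraries cannot tell whether both marks lie on the same nucleosomes, on the 2 copies of a gene, or in different cells, and "both marks" is used here only for islands of both at the same promoter.

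A promoter was taken as 1 kb on each side of the annotated 5′ end of a protein-coding gene on chromosomes 1 to 22 and X, which gave 20090 promoters. That end is the outermost one of the gene record. For a gene with several starts the window can therefore lie far from the start in use, and at or within a neighbouring gene. A mark was called present where a SICER island, a broad region called by the authors, reached into the window in both replicates, and absent where it did so in neither. Promoters with a mark in 1 of 2 replicates were set aside as unsettled.

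The 200 bases before the gene start are printed for 4 promoters, to show the sequence on which marked and unmarked promoters sat, with CpG dinucleotides in capitals. The first 2 lead the rankings by island width or shared length described further on, and the others were chosen after their values were seen. All are from GRCh37 (hg19), run 5′ to 3′ on the strand of the gene and lie outside the transcript. GMPPA (chr2:220363387-220363586, plus strand) carried H3K4me1 only. ISG15 (chr1:936318-936517, plus strand) carried both marks at the outermost end of its record, which spans 936518 to 949920. These bases need not be those before the start in use. LHX5 (chr12:113910086-113910285, minus strand) also carried both marks, and ALB (chr4:74262631-74262830, plus strand) neither.
GMPPA: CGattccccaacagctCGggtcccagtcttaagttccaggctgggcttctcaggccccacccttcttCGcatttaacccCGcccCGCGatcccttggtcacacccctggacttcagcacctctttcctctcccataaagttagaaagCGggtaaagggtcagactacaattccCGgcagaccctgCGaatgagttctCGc
ISG15: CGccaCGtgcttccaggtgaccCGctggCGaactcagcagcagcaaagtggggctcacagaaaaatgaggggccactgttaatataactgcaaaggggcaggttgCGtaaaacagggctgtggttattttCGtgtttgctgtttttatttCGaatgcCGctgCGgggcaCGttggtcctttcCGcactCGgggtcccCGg
LHX5: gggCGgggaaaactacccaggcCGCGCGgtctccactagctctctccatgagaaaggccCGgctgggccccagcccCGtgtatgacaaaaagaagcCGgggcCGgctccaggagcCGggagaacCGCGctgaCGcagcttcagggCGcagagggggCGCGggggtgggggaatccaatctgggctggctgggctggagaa
ALB: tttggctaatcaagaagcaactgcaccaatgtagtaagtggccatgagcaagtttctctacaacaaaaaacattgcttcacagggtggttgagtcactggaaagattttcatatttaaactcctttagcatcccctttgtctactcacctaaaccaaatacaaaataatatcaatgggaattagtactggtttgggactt
The stretches before ISG15 and LHX5 held 13 and 15 CpG, and those before GMPPA and ALB 10 and 0. Over the 2001-bp window the ratio of observed to expected CpG was 0.773 for ISG15, 0.686 for LHX5, 0.549 for GMPPA and 0.105 for ALB.

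The knockdown libraries held 24827 and 24916 islands of H3K4me1 over 114.6 and 114.4 Mb, and 15941 and 15768 islands of H3K27me3 over 89.8 and 87.3 Mb. Depth, read as the mean tags over a base in the genome background of the narrow peak lists, was 0.107 and 0.105 for H3K4me1 and 0.0539 and 0.0529 for H3K27me3. In siCtrl cells it was 0.0902 and 0.0849, and 0.0395 and 0.0401. The H3K4me1 libraries were therefore deeper than the H3K27me3 libraries and the knockdown libraries deeper than their controls. Island calls of the replicates overlapped closely at promoters: 93.9% of the promoters with an H3K4me1 island in either knockdown replicate had 1 in both, and 87.0% for H3K27me3. Narrow peaks did so at 91.2% for H3K4me1 and at 50.0% for H3K27me3, where 42.7% of the peaks of each replicate had a summit of 3 tags or fewer. By islands in both replicates H3K4me1 lay at 53.8% of promoters and H3K27me3 at 15.6%. A promoter without an island may still hold a mark: of the 7075 promoters with no island of either mark in the knockdown, 13.9% and 13.3% had a narrow H3K4me1 peak.

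By the island lists as deposited, H3K4me1 lay at most protein-coding promoters of the knockdown cells, and H3K27me3 at a small minority. H3K4me1 islands reached 55.6% and 55.6% of promoters in the 2 replicates and H3K27me3 islands 16.8% and 16.7%. The means were 55.6% ± 0.00704 and 16.8% ± 0.0739 (SD, n = 2), a difference of 38.8 percentage points, and the groups did not overlap. The exact two-sided permutation test gave p = 0.333, the smallest that 2 libraries against 2 allow, so this design cannot reach 0.05. With the 4 island lists cut to equal covered length the counts were 6747 H3K4me1-only, 1800 H3K27me3-only and 1166 both, so H3K4me1 lay at more promoters than H3K27me3 but no longer at most of the 20090. The study calls the 2 replicates biological, the labels do not say whether they came from separate cultures, and p-values here measure only the spread between these libraries.

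By class, 8896 promoters carried H3K4me1 only (44.3% of all promoters), 1275 H3K27me3 only (6.35%), 1690 both marks (8.41%) and 7075 neither (35.2%), and 1154 were unsettled (5.74%). The 4 ways to pair an H3K4me1 with an H3K27me3 library moved these counts little: 9261 to 9284 for H3K4me1 only, 1459 to 1492 for H3K27me3 only, 1877 to 1902 for both and 7437 to 7468 for neither. Narrow peaks gave another picture of the minority classes, with 289 H3K27me3-only promoters (1.44%) and 2682 with both marks (13.3%), beside 6286 with H3K4me1 only (31.3%) and 4115 unsettled (20.5%). In siCtrl cells narrow peaks gave 4.24% and 5.84% for these minority classes. Of the 8896 H3K4me1-only promoters, 22.2% and 21.9% had a narrow H3K27me3 peak in the 2 replicates, with a median summit of 3 tags in each. At promoters with both marks the median H3K27me3 summit was 13 tags in each replicate. Of the 1275 H3K27me3-only promoters 403 had no narrow peak of either mark, HOXB3 among them, as did 65 of the 1690 with both marks, LHX5 among them.

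**Figure D1:**
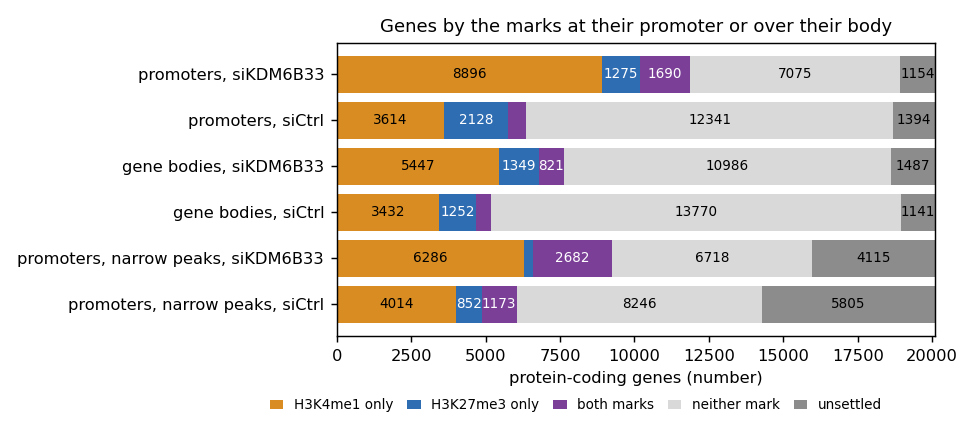
Number of protein-coding genes (x axis, 20090 in all) in each class of marks, by islands at the promoter, by islands over the gene body and by narrow peaks at the promoter, in siKDM6B33 and siCtrl cells. Colours mark the classes, and a count stands in each bar segment over 800 genes. H3K4me1-only promoters number 8896 in knockdown and 3614 in siCtrl cells, and promoters with neither mark 7075 and 12341.

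Over gene bodies, where a mark was counted if islands covered at least 10% of the gene in both replicates, 5447 genes carried H3K4me1 only (27.1%), 1349 H3K27me3 only (6.71%), 821 both (4.09%) and 10986 neither (54.7%), and 1487 were unsettled (7.4%). In siCtrl cells 68.5% had neither. H3K27me3 spread further into its genes than H3K4me1: genes with an H3K27me3-only promoter had on average 40.2% and 40.3% of their length under H3K27me3, and genes with an H3K4me1-only promoter 27.8% and 27.6% under H3K4me1. Genes with both marks at the promoter had 28.2% and 28.3% of their length under H3K4me1 and 30.8% and 30.9% under H3K27me3. Of these 1690 genes, 642 (38.0%) also carried both marks over the body. The body classes differed in gene length, and its part in them was not tested. The median length was 9.37 kb for genes with both marks over the body, 15.8 kb for H3K4me1 only, 26.4 kb for H3K27me3 only and 43.3 kb for neither, against 27.3 kb for all genes. By promoter class the medians lay closer, at 33.7, 30.9, 29.1 and 20.5 kb.

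Where both marks were called at a promoter, the gene start itself was under both in 91.8% to 92.2%. Islands of either mark covered most of the 2001-bp window at these promoters, so that shared bases follow almost from the calls, at 1689 of 1690 promoters in every pairing. The H3K27me3 island was the wider, with a median of 5000 and 4800 bp against 3600 and 3600 bp for H3K4me1. Of the H3K27me3 islands that touch no promoter 8.10% to 8.41% met an H3K4me1 island, against 56.6% to 57.3% of those at a promoter. In all 9.95 to 10.2 Mb was under both marks, which is 8.70% to 8.87% of the H3K4me1 length and 11.2% to 11.5% of the H3K27me3 length. Promoter windows held 27.5% to 27.7% of this shared length, 15% of the H3K4me1 length in each replicate, and 6.25% and 6.38% of the H3K27me3 length. H3K4me1 lay mostly within genes outside their promoters (60.9% and 60.7% of its length), and H3K27me3 mostly outside genes (51.6% and 51.4%).

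Island cover of both marks was highest just downstream of the gene start. At H3K4me1-only promoters, H3K4me1 islands covered 97.2% and 97.3% of the starts, 59.3% and 58.7% of the positions 1 kb upstream and 90.5% and 89.8% of those 1 kb downstream. H3K27me3 at H3K27me3-only promoters covered 94.9% and 94.5% at the start, 71.3% and 70.8% at 1 kb upstream and 87.7% and 87.9% at 1 kb downstream, so that its flanks were more even. At 5 kb downstream H3K27me3 still covered 36.8% and 37.2% of its promoters and H3K4me1 25.1% and 25.2%. The summit of the strongest H3K4me1 narrow peak lay within 250 bp of the start at 49.9% and 50.0% of H3K4me1-only promoters that had a summit in the window, and at 37.0% and 36.4% of those with both marks, where 41.8% and 42.7% of the summits lay further downstream.

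**Figure D2:**
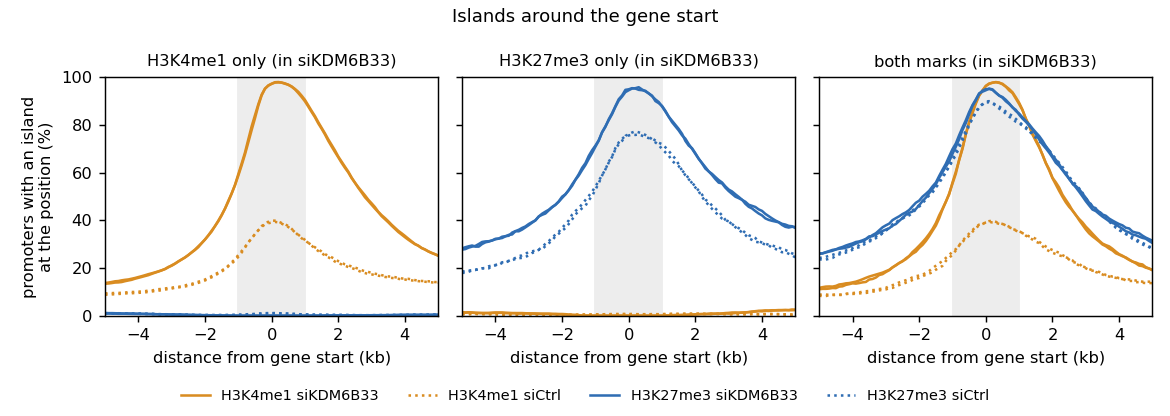
Percent of promoters with an island (y axis) at each distance from the gene start in kb (x axis, negative upstream), for the promoters that carried H3K4me1 only, H3K27me3 only or both in knockdown cells. Each line is 1 library, solid for siKDM6B33 and dotted for siCtrl, and the grey band is the 1 kb on each side that set the classes, so the solid lines are high there by the choice of promoters. The dotted lines show that H3K27me3 was already at most promoters with both marks in siCtrl cells, at 89.7% and 89.3% of starts, with H3K4me1 at 39.1% and 39.2%.

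In the siRNA libraries the marks met at promoters about as often as their separate frequencies would give, over all promoters as 1 set. The ratios of the compound experiment were higher and stand under other observations. The number of promoters with both was 1.00 to 1.02 times the product of the 2 shares over the 4 pairings in knockdown cells and 0.985 to 1.00 times in siCtrl cells. H3K4me1 islands lay at 55.8% to 56.5% of promoters with H3K27me3 and at 55.4% to 55.5% of those without. Within bins of like CpG content the overlap was mostly lower. All promoters were ranked and cut into 10 equal bins by the ratio of observed to expected CpG in the window. From bin 5 upward, where the ratio was 0.539 or more, the promoters with both marks were 0.843 to 0.904 times the product of the shares in knockdown cells. In siCtrl cells the range over these bins was 0.774 to 0.989. In bins 1 to 4 the values were 0.487, 0.908, 1.07 and 0.999 in knockdown and 0.799, 0.745, 0.935 and 1.00 in siCtrl cells, with 4 and 3 such promoters in bin 1.

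Promoters with both marks were the most CpG-rich and those with neither the poorest. The median ratio of observed to expected CpG was 0.713 for both marks, 0.695 for H3K4me1 only, 0.510 for H3K27me3 only and 0.302 for neither, against 0.612 for all promoters. The medians of GC content followed the same order, at 61.7%, 57.3%, 54.6% and 49.0%. H3K4me1 was scarce at CpG-poor promoters: it lay at 4.98% of the lowest bin and at 82.6% of the highest. H3K27me3 lay at 8.21% and 20.5%, a shallower slope, and H3K27me3-only promoters made up 7.91% of the lowest bin and 4.78% of the highest. In siCtrl cells H3K27me3-only promoters went the other way, at 3.58% of the lowest bin and 14.8% of the highest. Their median ratio there was 0.675, beside 0.664 for H3K4me1 only. Per library, the median ratio over marked promoters was 0.696 and 0.696 for H3K4me1 and 0.659 and 0.659 for H3K27me3, a difference of 0.0373 with p = 0.333 by the exact permutation test, again the smallest possible. This order was not general. In siCtrl cells the island medians were 0.675 and 0.677 for H3K4me1 and 0.677 and 0.678 for H3K27me3. In knockdown cells by narrow peaks the medians were 0.694 and 0.695 for H3K4me1 and 0.700 and 0.700 for H3K27me3, and the difference was -0.00543.

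**Figure D3:**
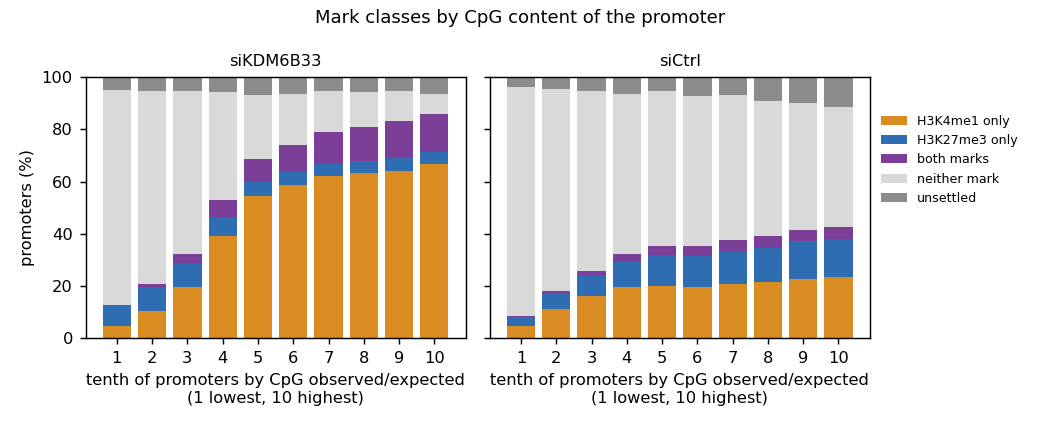
Percent of promoters in each class (y axis) by bin of all promoters ranked on the ratio of observed to expected CpG (x axis, 1 lowest, 10 highest; 2009 promoters in each), in siKDM6B33 and siCtrl cells. In knockdown cells H3K4me1-only promoters go from 4.78% of the lowest bin to 66.6% of the highest and promoters with both marks from 0.199% to 14.4%. In siCtrl cells the H3K4me1-only share is 4.73% and 23.3%.

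Short motifs were counted in the same windows on both strands. The E-box CACGTG, which MYC proteins bind, was in 33.4% of H3K4me1-only promoters, 32.0% of those with both marks, 25.8% with H3K27me3 only and 22.9% with neither, beside 28.7% of all promoters. The E2F site TTTGGCGC or TTTCGCGC was in 6.23%, 5.92%, 2.98% and 2.33%, beside 4.55%. A CTCF core was in 1.70%, 1.89%, 1.33% and 1.34%, beside 1.58%. Neither the E-box nor the E2F site contains the other, both contain CG, and a match is a run of letters and not a measured binding site. For both the 2 classes with H3K4me1 stood above the share of all promoters and the 2 without it below.

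At promoters the knockdown cells differed from siCtrl cells more in H3K4me1 than in H3K27me3, while over the genome the island lists differed more in H3K27me3. The siCtrl libraries held 21534 and 21698 islands of H3K4me1 over 103 and 98.6 Mb, and 10551 and 10587 of H3K27me3 over 53.7 and 54.2 Mb. By the lists as deposited, H3K4me1 islands lay at 23.8% and 24.1% of promoters in siCtrl cells, against 55.6% and 55.6%. H3K27me3 lay at 15.4% and 15.4% against 16.8% and 16.7%, a direction that did not hold after the cut to equal covered length given below. The siCtrl classes were 3614 H3K4me1 only (18%), 2128 H3K27me3 only (10.6%), 613 both (3.05%) and 12341 neither (61.4%), with 6.94% unsettled. With libraries paired by replicate number, both marks lay at 9.47% and 9.34% of promoters in knockdown and 3.60% and 3.72% in siCtrl cells, a difference of 5.74 percentage points (p = 0.333, exact permutation test, the smallest possible). Among promoters with H3K27me3, 56.3% and 55.9% also had H3K4me1 in knockdown and 23.5% and 24.1% in siCtrl cells.

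Promoters with both marks in the knockdown came mostly from promoters that siCtrl cells marked with H3K27me3 alone. Of the 1690, 882 (52.2%) had H3K27me3 only in siCtrl cells, 559 (33.1%) had both already, 39 had H3K4me1 only and 23 neither. Seen from siCtrl cells, 956 of the 2128 H3K27me3-only promoters kept that class, 882 (41.4%) had both marks and 28 had H3K4me1 only. Of the 12341 with neither mark, 4723 (38.3%) had H3K4me1 only and 193 H3K27me3 only. The classes with H3K4me1 in siCtrl cells moved little: 3305 of 3614 H3K4me1-only promoters (91.4%) and 559 of 613 with both (91.2%) had the same class in the knockdown, and 0 of the 3614 had H3K27me3 only.

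Some promoters without an H3K4me1 island in siCtrl cells had a narrow peak there. Of the 12341 with neither island, 30.7% and 30.3% had a narrow H3K4me1 peak in the siCtrl libraries, with a median summit of 4 tags in each. Of the 8896 promoters with H3K4me1 only in the knockdown, of which 3305 had H3K4me1 only by islands in siCtrl cells too, 70.9% and 70.5% had an H3K4me1 summit within 1 kb of the start in the siCtrl libraries, against 93.1% and 93.2% in the knockdown. For the 1690 with both marks the shares were 56.7% and 54.8%, against 90.5% and 90.2%. Cutting all 8 island lists to equal covered length, highest scores first, left 3755 H3K4me1-only promoters in knockdown (18.7% of all) and 1231 in siCtrl cells (6.13%), H3K27me3 only at 1620 (8.06%) and 2613 (13.0%), and both marks in both replicates at 390 (1.94%) and 195 (0.971%). By replicate pair it left both marks at 2.25% and 2.19% against 1.1% and 1.31%. Among settled promoters, those with H3K27me3, alone or with H3K4me1, were fewer in knockdown than in siCtrl cells after the cut, and more as deposited. For H3K4me1 only, H3K27me3 only and both marks as classes the direction was the same, and the difference in promoters with both marks was 1.02 percentage points. The part that depth had in the rest was not tested.

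The gene groups below were each read by class beside all promoters. In knockdown cells all promoters had H3K4me1 only at 44.3%, H3K27me3 only at 6.35%, both at 8.41% and neither at 35.2%. In siCtrl cells the shares were 18.0%, 10.6%, 3.05% and 61.4%, in the same order. Developmental transcription factors, which direct cell fate and are the classical targets of Polycomb, stood mostly in the class with both marks by the lists as deposited: 61 of 96 (63.5%), with 15 H3K27me3 only, 7 H3K4me1 only, 7 neither and 6 unsettled. In siCtrl cells 55 of them had H3K27me3 only and 21 both. All 21 had both in the knockdown too, 34 of the 55 had both marks and 15 kept H3K27me3 only. Over all promoters, 91.2% of those with both marks in siCtrl cells had both in the knockdown. Of all those with H3K27me3 only in siCtrl cells, 41.4% had both marks and 44.9% kept H3K27me3 only. The 34 include LHX5 and LHX2, LIM homeobox factors of the forebrain, NEUROG1 and NEUROD1, proneural factors, MYOD1, the master regulator of muscle, and PDX1 of the pancreas. The 15 that kept H3K27me3 only include OTX2 of the forebrain, SOX17, FOXA1 and FOXA2 of endoderm and MYF5 of muscle. PAX6, SOX2, SOX8 and POU4F1 had both marks in both cell states, and SOX10, GATA5 and PAX5 neither. After the cut to equal covered length the leading class was H3K27me3 only, with 42 of the 96 in knockdown and 71 in siCtrl cells, and 30 and 6 had both marks, beside 8.06% and 13.0% of all promoters with H3K27me3 only and 1.94% and 0.971% with both at that setting. By narrow peaks 36 (37.5%, beside 13.3% of all promoters) and 9 (9.38%, beside 5.84%) had both.

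The 39 genes of the HOX clusters, which set position along the body axis, differed by cluster. They had H3K27me3 only at 10, both marks at 17, H3K4me1 only at 8, neither at 1 and unsettled calls at 3, against 20, 7, 5, 4 and 3 in siCtrl cells. H3K27me3 islands lay at all 11 HOXA and all 10 HOXB promoters in all 4 H3K27me3 libraries, where they covered 97.5% and 96.6% of the 106 kb span of the HOXA starts and 86.4% and 84.8% of the 199.7 kb span of HOXB in the knockdown. Neighbouring promoters share islands there, with 3 islands at the 11 HOXA promoters in each knockdown replicate and 3 and 4 at the 10 of HOXB, so the genes are not separate measurements. At HOXC and HOXD H3K27me3 lay at 4 of 9 promoters each, in every library.

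H3K4me1 differed more between the cell states within these clusters. It lay at 7 and 7 of 11 HOXA promoters in knockdown and 2 and 1 in siCtrl cells, at 4 and 3 against 0 and 0 of 10 at HOXB, and at 8 and 7 against 4 and 4 of 9 at HOXD. HOXC was marked in both states, at 8 and 9 against 8 and 8 of 9. HOXC4, HOXC5, HOXC6, HOXC8 and HOXC9 had H3K4me1 only in both states and 0% of the window under H3K27me3 in every library, under an H3K4me1 island of 57800 bp in replicate 1. HOXA2, HOXA4, HOXA10, HOXB1 to HOXB4, HOXB6 and HOXB7 had windows fully under H3K27me3 in all 4 libraries and 0% under H3K4me1. HOXA9 had 100% and 100% of its window under H3K4me1 in knockdown and 0% and 0% in siCtrl cells. That window, at the outermost end of its record (27214799), lies within the record of HOXA10 (27210224 to 27219880). Of the 20 HOX genes with H3K27me3 only in siCtrl cells, 9 had both marks in the knockdown, HOXA9 among them. Of all promoters with H3K27me3 only in siCtrl cells, 41.4% had both marks in the knockdown. After the cut to equal covered length 21 HOX promoters had H3K27me3 only and 4 both marks in knockdown cells, against 27 and 2 in siCtrl cells, beside the shares of all promoters just given for that setting. By narrow peaks both marks were called at 6 (15.4%, beside 13.3% of all promoters) and 4 (10.3%, beside 5.84%).

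**Figure D4:**
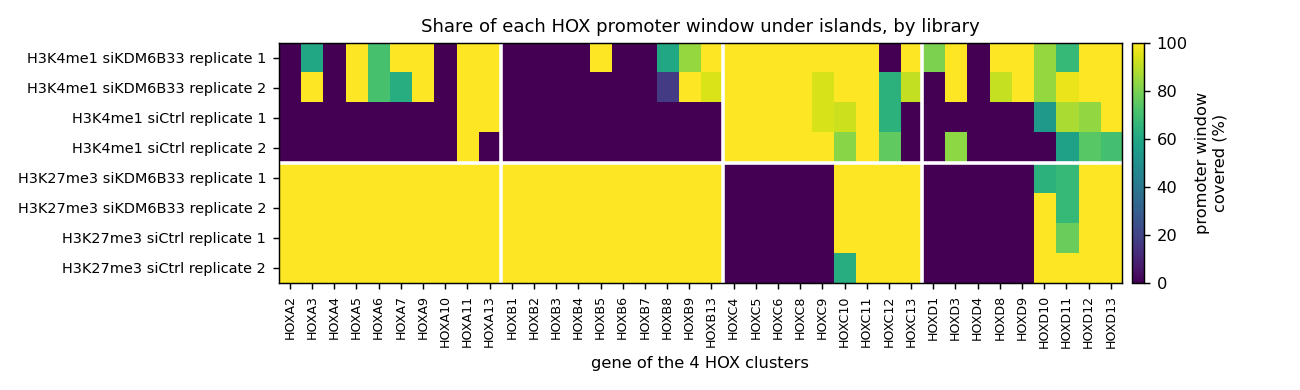
Percent of each HOX promoter window under islands (colour, 0 to 100) for HOX genes in cluster order (x axis) and 8 libraries (y axis). The H3K27me3 rows are full over HOXA and HOXB in all 4 libraries and empty over HOXC4 to HOXC9 and HOXD1 to HOXD9. The H3K4me1 rows fill parts of HOXA, HOXB and HOXD in the knockdown libraries that are empty in siCtrl cells.

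Genes of adrenergic identity, the transcription factors and enzymes that define the sympathetic state of neuroblastoma cells, served as the check of the labelled cell type. Of 23, 15 had H3K4me1 only (65.2%), 4 both, 0 H3K27me3 only, 2 neither and 2 unsettled. PHOX2A, HAND1, GATA2, GATA3, TBX2 and RET had H3K4me1 only in both cell states. HAND2, a core factor of the lineage, had 100% and 100% of the window under H3K4me1 in the knockdown and 0% and 0% in siCtrl cells, and no H3K27me3 in either. SOX11 and INSM1 had both marks in the knockdown and H3K27me3 only in siCtrl cells. DBH, the enzyme that makes noradrenaline, had both in the knockdown, with H3K27me3 over 100% and 95.8% of the window, and H3K4me1 only in siCtrl cells. TH, which starts catecholamine synthesis, was unsettled, since H3K27me3 covered 87.8% of its window in replicate 1 and 0% in replicate 2. DDC had neither mark in the knockdown, and 100% and 100% of its window under H3K4me1 in siCtrl cells. The receptor ALK had both marks in both states.

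Markers of blood, liver and muscle were mostly without either mark in the knockdown, where 35.2% of all promoters had neither. Of 20 blood and immune genes, 12 had neither (60%), 4 H3K27me3 only, 1 H3K4me1 only, 0 both and 3 were unsettled, and PTPRC, CD3E and SPI1 all had neither. Of 20 liver and muscle genes, 14 had neither (70%), ALB among them, 3 H3K4me1 only (ACTA1, TNNT2 and APOA1) and 2 H3K27me3 only (MYH7 and SERPINA1). In siCtrl cells 12 of the blood and immune genes (60%) had neither, near the 61.4% of all promoters, and 15 of the liver and muscle genes (75%). The 20 genes of the mesenchymal state, the other identity that neuroblastoma cells can take, had both marks at 6, H3K27me3 only at 2, H3K4me1 only at 4 and neither at 7. PRRX1, FOSL1, YAP1, TBX18 and VIM had H3K27me3 only in siCtrl cells and both marks in the knockdown, TWIST1 and SNAI2 H3K4me1 only in both states, and FN1 H3K27me3 only in both.

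**Figure D5:**
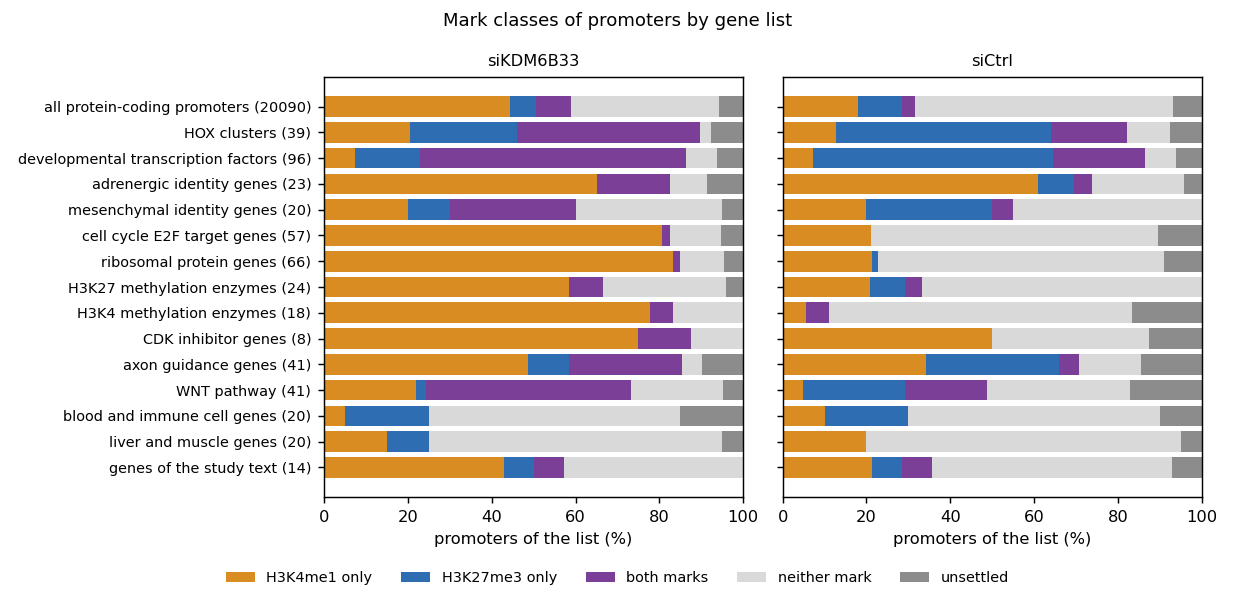
Percent of promoters in each class (x axis) for all protein-coding promoters and 14 gene lists (y axis, number of genes in brackets), in siKDM6B33 and siCtrl cells. Both marks take 63.5% of the developmental transcription factors and 43.6% of HOX genes in the knockdown, against 8.41% of all promoters, and H3K4me1 only takes 80.7% of E2F targets and 83.3% of ribosomal protein genes, against 44.3%.

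Signalling genes of development fell into several classes within each role. Of 41 WNT genes, 20 had both marks (48.8%), 9 H3K4me1 only, 1 H3K27me3 only, 9 neither and 2 unsettled. The ligands WNT1, WNT3A, WNT5A, WNT7A and WNT7B and the receptors FZD1, FZD4, FZD7, FZD8 and FZD10 had both marks, while the co-receptors LRP5 and LRP6 and the receptors FZD2, FZD3, FZD5 and FZD6 had H3K4me1 only. Among the secreted inhibitors, WIF1 had H3K27me3 only, SFRP2 and SFRP5 both, and DKK1, DKK3 and FRZB H3K4me1 only. In siCtrl cells 8 of the 41 had both marks (19.5%, beside 3.05% of all promoters) and 10 H3K27me3 only (24.4%, beside 10.6%). Of those 10, 9 had both in the knockdown, beside 41.4% of all promoters with H3K27me3 only in siCtrl cells. By narrow peaks both marks stood at 15 WNT genes in knockdown (36.6%, beside 13.3% of all promoters) and 4 in siCtrl cells (9.76%, beside 5.84%). After the cut to equal covered length 6 had both marks and 12 H3K27me3 only in knockdown cells, and 5 and 15 in siCtrl cells, where all promoters stood at 1.94% and 8.06%, and 0.971% and 13.0%. Of 41 axon guidance genes, 20 had H3K4me1 only (48.8%), 11 both, 4 H3K27me3 only, 2 neither and 4 were unsettled. The plexins PLXNA1 and PLXNA2 and the netrin receptors UNC5A, UNC5B and UNC5C had H3K4me1 only, the ephrin receptors EPHA4, EPHA5 and EPHA7 and SLIT2 both, and NTN1, ROBO2, UNC5D and EPHA3 H3K27me3 only.

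Cell cycle and ribosomal genes, which growing cells transcribe at high rates, had few H3K27me3 islands. Of 57 E2F targets, 46 had H3K4me1 only (80.7%), 0 H3K27me3 only, 1 both, 7 neither and 3 were unsettled. In siCtrl cells 12 had H3K4me1 only (21.1%, beside 18% of all promoters) and 39 neither (68.4%, beside 61.4%). Of those 39, 29 had H3K4me1 only in the knockdown, beside 38.3% of all promoters with neither mark in siCtrl cells. By narrow peaks the siCtrl counts were 20 H3K4me1 only (35.1%, beside 20.0% of all promoters), 9 neither (15.8%, beside 41.0%) and 24 unsettled (42.1%, beside 28.9%). The knockdown had 39 with H3K4me1 only by narrow peaks (68.4%, beside 31.3%). E2F targets with an H3K4me1 island in both knockdown replicates include CDK1, the kinase of mitotic entry, CCNA2 and BRCA1. At CDK1 64.4% and 64.4% of the window was under H3K4me1 in the knockdown and 0% and 0% in siCtrl cells. CCNA2 had 88.1% and 68.1% in the knockdown, and BRCA1 100% and 100%. CCNE1, BUB1, E2F7, E2F8, TYMS, CENPE and UHRF1 had no island of either mark in any knockdown library. Narrow H3K4me1 peaks were nevertheless called in both replicates at BUB1, with summits of 10 and 8 tags, and at CCNE1 with 5 and 5. The 1 gene with both marks was ORC6 of the origin recognition complex, where H3K27me3 covered 70% and 50% of the window. Of 66 ribosomal protein genes, 55 had H3K4me1 only (83.3%), 1 both and 0 H3K27me3 only, against 14 (21.2%, beside 18% of all promoters), 0 and 1 in siCtrl cells. After the cut to equal covered length H3K4me1 only stood at 15 E2F targets in knockdown (26.3%, beside 18.7% of all promoters) and 2 in siCtrl cells (3.51%, beside 6.13%), and at 26 (39.4%) and 6 (9.09%) ribosomal protein genes. By narrow peaks 9 of the 57 E2F targets (15.8%) and 5 of the 66 ribosomal protein genes (7.58%) had both marks in the knockdown, beside 13.3% of all promoters. CDK1 and CCNA2 were among the 9, with H3K27me3 summits of 3 and 2 tags at CDK1 and 2 and 2 at CCNA2.

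Of the enzymes and Polycomb subunits that write, read or erase H3K27 methylation, 14 of 24 had H3K4me1 only (58.3%), 2 both, 0 H3K27me3 only, 7 neither and 1 was unsettled. EZH2, the methyltransferase, had 99.4% and 89.4% of the window under H3K4me1 in the knockdown and 0% and 0% in siCtrl cells, and KDM6A, the paralogue of KDM6B, 100% and 98.3% against 0% and 0%. SUZ12 and EED, the partners of EZH2, had neither mark. CBX7, a reader of H3K27me3, had both marks in the knockdown and H3K27me3 only in siCtrl cells. BMI1, a subunit of Polycomb complex 1, was the 1 gene of this list with H3K27me3 only in siCtrl cells (71.4% and 61.4% of the window) and H3K4me1 only in the knockdown (100% and 100%). Of 18 enzymes and partners of H3K4 methylation, 14 had H3K4me1 only (77.8%), among them KMT2C and KMT2D, against 1 in siCtrl cells (5.56%, beside 18.0% of all promoters). By narrow peaks 9 of the 18 had H3K4me1 only in knockdown (50%, beside 31.3% of all promoters) and 5 in siCtrl cells (27.8%, beside 20.0%). KMT2B had both marks in both states and KMT2A neither. Of 8 CDK inhibitor genes, 6 had H3K4me1 only, among them CDKN1A with 61.8% and 71.8% of the window, CDKN1C had both and CDKN2C neither.

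The widest islands over promoters were ranked within each class. A gene is named by the window at the outermost end of its record, so an island may lie at the start of a neighbouring gene. For H3K4me1 only, the widest island, of 63.2 to 63.8 kb, lay over GMPPA, an enzyme of GDP-mannose metabolism, followed by NOC2L with 54.8 to 55.0 kb, HOXC4 with 51.6 to 57.8 kb, CIRBP, SLC7A5, TBX2, PLXNA1 and FAM222A with 38.6 to 41.0 kb. For H3K27me3 only the first ranks were wider, with 100.8 to 112.4 kb over HOXB3, 81.0 to 85.8 kb over IRF8, a factor of blood cells, and 57.8 to 82.4 kb over a gene with no symbol in the HOXA cluster (ENSG00000257184). The others were PRKCZ, HOXA2, PPP1R1A, TIGAR and ZIC4, whose ranges overlapped those of H3K4me1, and the replicates differed most at HOXA2, with 20.4 and 46.0 kb. All 8 genes of each of these rankings had the same class in siCtrl cells. Among promoters with both marks, ranked by the length that both covered within 5 kb of the start, ISG15, LHX5, LHX1, SAMD11 and BARX1 had all 10001 bp under both in every pairing. FAM120B, SOX8 and NDUFA4L2 followed, and LHX5 and BARX1 had H3K27me3 only in siCtrl cells.

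The genes around MYCN, which BE2C cells carry in many copies, were kept out of the rankings. The MYCN promoter window was fully under both marks in all 8 libraries, within islands of 195400 and 195400 bp for H3K4me1 and 195400 and 195200 bp for H3K27me3 in the knockdown. The lncRNA GACAT3 beside it was fully under both as well. Islands were called against the genome background of a library, so extra copies and extra marks cannot be told apart here. CYRIA, a gene of the same region that the study names by its older symbol FAM49A, had H3K27me3 only in both cell states.

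Chromosome X stood apart from the autosomes. Of its 868 promoters 14.2% had H3K4me1 only, 4.03% H3K27me3 only, 1.73% both and 74.0% neither. Among the autosomes H3K4me1 only ran from 33.1% on chromosome 18 to 58.4% on chromosome 22, both marks from 5.68% on chromosome 21 to 13.0% on chromosome 13, and neither from 20.6% on chromosome 20 to 44.1% on chromosome 21. The number of copies of each chromosome was not measured, and its part in these shares was not tested.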

How the data were processed

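H3K4me1 and H3K27me3 were profiled by CUT&Tag, in which an antibody tethers a transposase to the mark, in BE2C cells given siKDM6B33 or siCtrl for 72 h (2 libraries per mark and siRNA). Per the labels and the study's methods, the authors trimmed reads with Trim Galore 0.4.4, aligned them to hg19 with BWA 0.7.12, removed duplicates with Picard 1.65, filtered with SAMtools 1.3.1, and called regions library by library with SICER 1.1 and MACS2 (2.1.1 in the submitters' processing notes, a later version in the methods). The deposited island lists give the SICER score of each island. The deposited narrow peak lists give, as the authors' caller wrote them, a score, the fold enrichment (a ratio of summit to local background), −log10 p and −log10 q. The study scaled libraries by spike-in reads and tested reads per region with voom and limma. The lists hold no reads per region, so that test was not run, and no spike-in factor was used here.

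Promoter windows, gene bodies and sequences came from GRCh37 with GENCODE 44 mapped to it; 0 of 32 lists had a coordinate past a chromosome end. Computation used Python 3.11.15, numpy 2.4.6, pandas 2.3.3, scipy 1.17.1, pysam 0.24.0, samtools 1.23.1 and matplotlib 3.10.9, and was tested on simulated regions. Depth was solved from fold and −log10 p, and the solution covered over 99.9% of the peaks in each siRNA library. The difference of library means was tested by exact permutation of the libraries (two-sided), where 2 against 2 cannot go below 0.333. Promoters are not replicates and were only counted. Genes were named from 14 lists and from the 8 widest islands of each class, 1 gene per island, without chromosome 2 from 15 to 17.5 Mb. LHX5 and ALB were added to the printed sequences after their values were seen. The rule for classes, the lists and the libraries were chosen with earlier results of these data known. The DMSO and GSKJ4 libraries enter no comparison of the report and stand only under other observations. Some genes and sequences are not reported here.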

Additional observations from a re-analysis of the deposited data

How the results depend on the processing

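Leaving out 1 library at a time, the difference in the share of promoters with an island stayed at 38.8 to 38.9 percentage points, the difference in promoters with both marks at 5.68 to 5.81 and the CpG difference at 0.0370 to 0.0376. Counts without 1 library were 9005 to 9165 for promoters with H3K4me1 only, 1350 to 1398 for H3K27me3 only, 1765 to 1808 for both and 7181 to 7344 for neither. For gene bodies they were 5504 to 5919, 1385 to 1515, 857 to 889 and 11144 to 11458. Of 142 alternatives in all, 111 kept the direction, or a count within 1.5 times, 30 moved a count further and 1 reversed. By narrow peaks the CpG difference was -0.00543, promoters with H3K27me3 only numbered 289 and those with both marks 2682. Keeping narrow peaks from a −log10 q of 5 upward gave 166 and 998. With islands counted at any transcript start of the gene, 9434 promoters had H3K4me1 only, 1351 H3K27me3 only, 2001 both and 6161 neither. Islands at or above the median score of their list left 728 promoters and 497 gene bodies with both marks. For gene bodies, any overlap gave 9770 genes with H3K4me1 only, 2431 with both and 5194 with neither; cover of 50% or more gave 1789, 641 with H3K27me3 only, 253 with both and 16622 with neither; narrow peaks gave 747 with H3K27me3 only, 4016 with both and 3884 with neither. The cause was not tested, beyond what the rules for gene bodies themselves fix. After the cut to equal covered length H3K4me1 only stood at 7 of 24 H3K27 enzymes (14 as deposited), 7 of 18 H3K4 enzymes (14) and 3 of 8 CDK inhibitors (6), and both marks at 1 of 20 mesenchymal (6), 1 of 23 adrenergic (4) and 7 of 41 axon guidance genes (11), beside 18.7% of all promoters with H3K4me1 only and 1.94% with both at that setting. The counts of the gene lists at equal covered length and by narrow peaks were added after the data were seen.

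The titles give replicates the same numbers across groups, but nothing says that a number marks a shared culture or day. Deviations of replicates at promoters correlated at -0.0105 between the marks in knockdown cells and 0.0161 in siCtrl cells, and at 0.00187 and -0.0423 between knockdown and siCtrl cells for H3K4me1 and H3K27me3. With libraries paired by number as a replicate block the differences were unchanged at 38.8, 5.74 and 0.0373, each with an exact sign-flip p of 0.5, the smallest 2 pairs allow. The median narrow peak summit held 4 tags for H3K27me3 and 9 for H3K4me1, and how much of this is depth was not tested.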

Other observations

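Other gene families, read by symbol and chosen after the data were seen, are given beside all promoters, of which 44.3% had H3K4me1 only and 35.2% neither in knockdown cells, and 18% and 61.4% in siCtrl cells. Of 415 olfactory receptor genes, which stand in clusters and are silent outside the nose, 376 had neither mark (90.6%), 0 had H3K4me1 only and 19 H3K27me3 only. Of 94 keratin-associated protein genes of the hair, 85 had neither (90.4%) and 0 H3K4me1 only. Of 65 protocadherin genes, 52 had neither (80%), beside 3 with both marks. Genes needed in every cell lay at the other end: 64 of 78 mitochondrial ribosomal protein genes (82.1%), 28 of 39 proteasome subunit genes (71.8%) and 50 of 64 replication-dependent histone genes (78.1%) had H3K4me1 only, and 0 members of these 3 families had H3K27me3 only. In siCtrl cells the H3K4me1-only counts of these last families were 15 (19.2%), 5 (12.8%) and 23 (35.9%), the first 2 near or below the share of all promoters. The 515 zinc finger genes named ZNF stood near all promoters in the knockdown: 258 had H3K4me1 only (50.1%) and 190 neither (36.9%), against 59 (11.5%) and 410 (79.6%) in siCtrl cells. Neighbouring members of such clusters can share a promoter window or an island, and these shares carry no test.

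The separate compound experiment on the same line gave other frequencies of the marks meeting. In cells given 0.1% DMSO both marks lay at 1542 promoters, H3K4me1 only at 1744, H3K27me3 only at 617 and neither at 14324, and promoters with both were 3.06 to 3.27 times the product of the 2 shares over the pairings. In cells given 2.5 µM GSKJ4 the counts were 1622, 467, 777 and 14657, and the ratio 3.59 to 3.73. In siCtrl cells, which like the DMSO cells received no KDM6 inhibitor or siRNA against KDM6B, the ratio was 0.985 to 1.00. One GSKJ4 library stood apart from its replicate: H3K27me3 replicate 1 held 16669 islands with a median width of 3000 bp, replicate 2 held 8002 with 7400 bp, and the GSKJ4 H3K4me1 libraries 18989 and 19168 with 3000 bp each. Without H3K27me3 replicate 1 the GSKJ4 ratio was 3.59 and 3.62. The difference between the 2 experiments was not tested.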
